A study of Cicer arietinum with 8 samples.

Results

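The 100 most abundant root transcripts of 2 chickpea genotypes were the 100 loci, of 30978 in the deposited expression table, with the highest mean of the 4 FPKM values given for each locus. As commonly defined, FPKM counts fragments relative to the length of the transcript and to the mapped fragments, and is thus a level per length. The members were chosen by these 4 measured values, and therefore the levels, shares and ratios below are a description. Chickpea seedlings of ICC4958 (drought-tolerant, DT) and ICC1882 (drought-sensitive, DS) were grown in a growth chamber, and roots were taken at an age of 27 days. Drought plants (D) had received no water for 11 days from an age of 16 days, whereas control plants (C) were watered every other day, as the labels give it, and the study's methods give another start and length of the stress. The 4 groups were control roots of the tolerant genotype, DT(C), its drought roots, DT(D), and the same pair for the sensitive genotype, DS(C) and DS(D), with 2 libraries in each group and 8 libraries in all.

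Each group is 1 column in the table, which pools its 2 libraries, so no value below has a replicate error and no test between conditions was possible. A difference between columns is therefore a difference between 4 pooled profiles. Fewer cells of a type and less RNA per cell cannot be told apart in bulk roots. A locus carries the identifiers of the annotated genes it spans, and 88 of the 100 loci carried 1 identifier, 7 carried several and 5 carried none. None of their 103 identifiers is paired with a gene name in the table or in the reference list used here, so that only the members that the study names could be given a role, and root markers could not be checked. The table holds no read counts, the study's read totals per library were not used here, and all 100 loci were far above an FPKM of 1 in every column, the lowest value being 588 FPKM.

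In most tissues a small set of genes supplies a large part of the messenger RNA. In plant roots such transcripts commonly encode ribosomal proteins and translation factors, metallothioneins, water channels and enzymes of central carbon metabolism. FPKM is a relative unit. Where columns are scaled to their mapped fragments alone, more reads from a few abundant transcripts leave fewer for all others. The share of the abundant transcripts then bears on every other value of the column. The deposited columns summed to 0.98 (DT(D)), 1.21 (DS(C)) and 0.87 (DS(D)) times DT(C). Over 21670 loci above 0 in every column, the median ratio to the locus's geometric mean, relative to DT(C), was 1.02, 0.94 and 0.95. How the deposited columns were scaled was not tested.

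The 100 loci held a large part of each column. Their share of the summed FPKM was 23.8% (control) and 26.6% (drought) in DT, and 28.8% and 27.4% in DS. Within each genotype the share moved in the opposite direction with drought, upwards in DT and downwards in DS, and the control roots of DT stood lowest. The 10 most abundant loci alone held 7.39% and 9.68% in DT without and with drought, and 10.6% and 10.8% in DS. The smaller share of DT(C) thus lay largely in the highest ranks, since ranks 51 to 100 took between 6.20% and 6.88% of every column. The 1000 most abundant loci held between 57.7% (DT(C)) and 64.3% (DS(C)). To reach 50% of the summed FPKM, the profile of DS(C) needed 427 loci counted from its own highest, whereas 571 were needed in DS(D), 553 in DT(D) and 621 in DT(C). By this measure the control roots of DS had the most concentrated profile. Without the most abundant locus the shares of the other 99 were 24.8% in DT(D) and 24.3% in DS(D), so that the order of the drought columns rested on that locus.

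**Figure D1:**
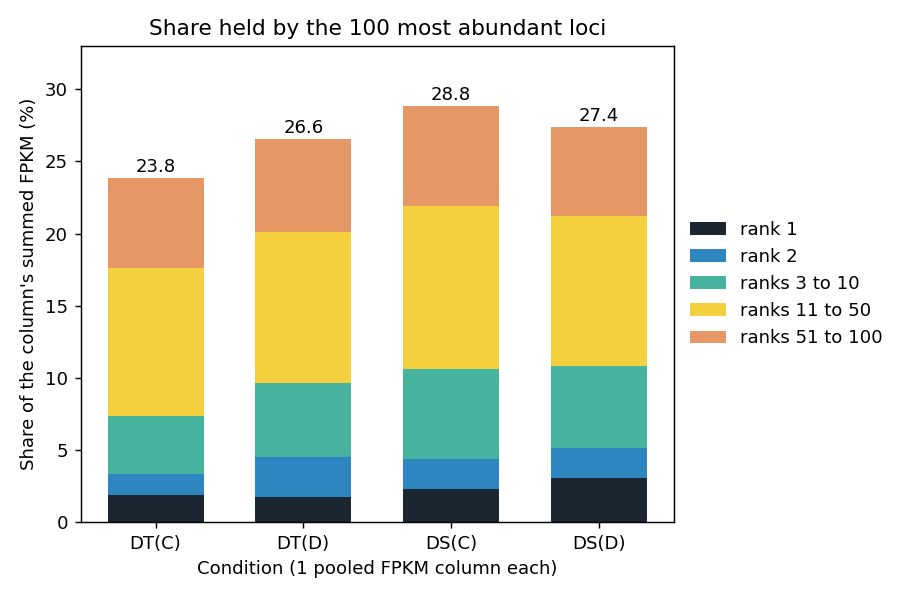
Share of the summed FPKM of each pooled column (y axis, percent) held by the 100 loci, stacked by their rank by mean FPKM, for the 4 conditions (x axis). The whole bars reach 23.8% in control and 26.6% in drought roots of DT, against 28.8% and 27.4% in those of DS, and the part of ranks 1 to 10 is smallest in DT(C), at 7.39%.

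The columns shared most of their abundant loci. Between 73 and 85 of a column's own 100 highest loci were among those of any other column, and 67 were in all 4. Of the 100 members, 87 were also among the 100 highest of DT(C), 84 of DT(D), 88 of DS(C) and 85 of DS(D), counts that the choice by the mean of these columns raises. Taking each column's own 100 highest loci instead moved the share little, to 24.5% (control) and 27.3% (drought) in DT, and 29.2% and 27.9% in DS. The lowest ranks of any member were 222 in DT(C) (Ca_07447), 281 in DT(D) (Ca_24014), 177 in DS(C) (Ca_06579) and 255 in DS(D) (Ca_05270). The median member had 2280 and 2134 FPKM in DT without and with drought, and 2874 and 1882 in DS. At the limit itself the mean FPKM hardly changed from rank to rank, with 1474.7 (Ca_05988), 1472.9 (Ca_03514) and 1466.4 (Ca_08537) for the last loci inside and 1464.1 (Ca_05919), 1457.4 (Ca_02616) and 1446.3 (Ca_12435) for the first outside.

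A pair of loci stood far above all others. Ca_05165 had 25616 FPKM in control and 23718 in drought roots of DT, against 37738 and 36770 in those of DS, and was the highest locus of every column except DT(D). As deposited, it differed between the genotypes (DT(C)/DS(C) log2 ratio of -0.56, DT(D)/DS(D) of -0.63) and hardly with drought (-0.11 in DT, -0.04 in DS). After the columns were rescaled to the same sum, its genotype ratios were -0.29 in control and -0.80 in drought roots. Its drought ratios were then -0.08 in DT and 0.43 in DS. The locus that spans Ca_21944 and Ca_21945 had 20415 FPKM (control) and 37546 (drought) in DT, and 34965 and 25340 in DS. As deposited, this locus was higher with drought in DT and lower in DS, with log2 ratios of 0.88 and -0.46. With columns of equal sum these ratios were 0.91 and 0.0009, so that the decrease in DS was not seen on that scale. This locus was the highest of DT(D). Its difference of 17131 FPKM between DT(D) and DT(C) was the largest gain of any member. The pair together held 3.34% and 4.53% in DT without and with drought, and 4.37% and 5.16% in DS.

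The next 8 loci lay between 7196 and 13986 FPKM in the mean. XLOC_020264, a locus of the assembly without a gene identifier, was at rank 3 in all 4 columns, with 10740 FPKM in control and 12143 in drought roots of DT, against 19081 and 13981 in those of DS. Ca_06966 was the most even of the 10, with 10330, 10573, 13357 and 10419 FPKM in the order control DT, drought DT, control DS and drought DS, which is kept below. Ca_13501 (7199, 8173, 16683 and 8716 FPKM) and XLOC_028145, again without an identifier (6182, 6501, 16148 and 5651 FPKM), had one feature in common. Both were about as abundant in DT(C), DT(D) and DS(D) and stood apart in DS(C) alone. As deposited, XLOC_028145 and Ca_13501 also were, with differences of -10497 and -7968 FPKM, among the 3 largest losses of DS(D/C). The locus of Ca_21944 and Ca_21945, with -9626, was the other. Ca_25936 (6945, 7083, 11695 and 6670 FPKM) resembled them with a smaller excess in DS(C). The locus of Ca_19617 and Ca_19618 had 5194, 8840, 8809 and 7626 FPKM, and Ca_15742 had 4230, 8393, 8403 and 9444 FPKM. In these, DT(C) was the low value and the other columns were close to each other. Ca_00723, at rank 10, had 4990 FPKM (control) and 7911 (drought) in DT, and 10035 and 5850 in DS, higher with drought in DT and lower in DS.

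With drought, most of the 100 loci were slightly higher in the tolerant genotype and most were lower in the sensitive one. In DT(D/C), 64 loci were above and 36 below a log2 ratio of 0, with a median of 0.10, quartiles of -0.09 and 0.37 and a range from -2.99 to 1.16. In DS(D/C), 9 loci were above and 91 below 0, with a median of -0.61, quartiles of -0.88 and -0.30 and a range from -2.36 to 0.48. Over all loci expressed at an FPKM of 1 or more in either condition the median was 0.02 for the drought ratio of DT and -0.01 for that of DS, so that in DS the members lay well away from the whole table. In all, 56 members were above 0 in DT and below 0 in DS, 1 showed the reverse, 8 were above 0 in both and 35 below 0 in both. Over all loci with a mean FPKM of at least 1 these patterns took 24.3%, 21.2%, 27.8% and 26.2%, and 46.6% of the loci of ranks 101 to 1000 had the first of them.

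Counted at a log2 ratio of 1 or more in size, few members differed in DT and only decreases were found in DS. In DT(D/C), 2 members were higher and 7 lower, where the background over 20326 expressed loci was 5.03% higher and 8.88% lower. In DS(D/C), none was higher and 18 were lower, against 8.21% and 8.66% of 20093 loci. The count of decreases in DS was above this background, but not above the 20.2% found in ranks 101 to 1000. It depends on how the columns are scaled. After the columns were rescaled to the same sum, 39 members lay above and 61 below 0 in DS(D/C), none was higher and 8 were lower by 1 or more against 20.1% and 4.73% of expressed loci, and the members' median was -0.14. The same rescaling moved the median of all expressed loci to 0.46, so that the members' median lay below it by the same 0.60 as before. Members above 0 in DT and below 0 in DS numbered 34 on this scale.

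**Figure D2:**
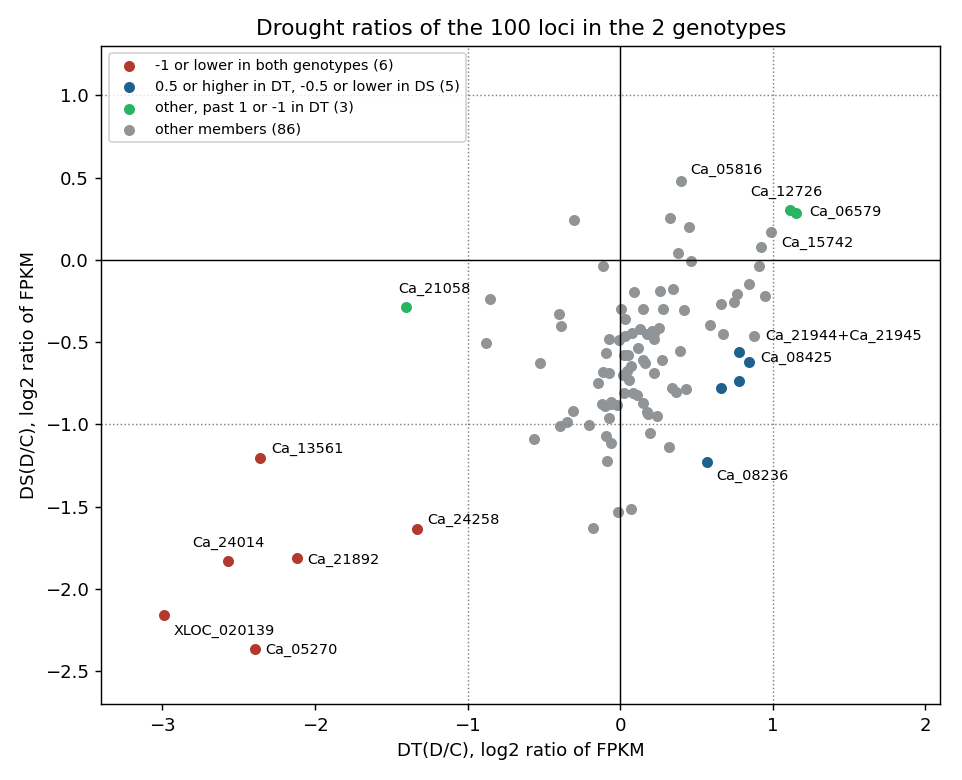
Log2 ratio of FPKM between drought and control in DT (x axis) and in DS (y axis), with 1 point for each of the 100 loci and dotted lines at 1 and -1. The 6 loci at the lower left had ratios of -1 or lower in both genotypes, 5 loci had 0.5 or more in DT with -0.5 or less in DS, and the bulk lies near 0 in DT and below 0 in DS.

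In 6 members the log2 ratio with drought was -1 or lower in both genotypes, where 3.94% of the loci with a mean FPKM of at least 1 had this pattern, and no member was higher by 1 or more in both. All 6 ranked within the first 100 in both control columns and beyond rank 100 in both drought columns, so that they entered the 100 through the control values, and their count is a description that follows in part from the choice of members. XLOC_020139, without an identifier, had 8311 and 1048 FPKM in DT without and with drought, and 4493 and 1006 in DS. This locus was at rank 5 in DT(C) and rank 163 in DT(D), and its ratios of -2.99 and -2.16 make it the member with the largest decrease in DT. Ca_24014 had 3855, 650, 2463 and 692 FPKM, with ratios of -2.57 in DT and -1.83 in DS. Ca_05270 had 3463, 659, 3025 and 588 FPKM, with ratios of -2.39 and -2.36. In each of these the control values were the high ones in both genotypes, and the drought values of DT and DS nearly coincided.

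The other members of this group also had both control values above both drought values, with ratios between -2.36 and -1.33 in DT and between -1.81 and -1.21 in DS. Ca_13561 had 5634 FPKM in control and 1098 in drought roots of DT, against 2750 and 1192 in those of DS. Ca_21892 had 4917, 1131, 3705 and 1054 FPKM, and Ca_24258 had 3101, 1230, 2323 and 747 FPKM. XLOC_020139, Ca_13561 and Ca_21892 were the 3 largest FPKM losses of DT(D/C). All 6 were higher in DT(C) than in DS(C), by log2 ratios between 0.19 and 1.03, whereas 90 of the 100 members were lower in DT(C). Summed, the 6 loci had 29280 FPKM in DT(C) and 5816 in DT(D), and 18759 in DS(C) and 5278 in DS(D), which is 2.12%, 0.43%, 1.13% and 0.44% of these columns. With columns of equal sum 5 of the 6 passed -1 in both genotypes, Ca_13561 in DT only. Without the 6, the log2 ratio of the members' summed FPKM with drought was 0.24 for DT and -0.50 for DS. Ca_05270 also stands at a separate locus of rank 1513 (308, 50.1, 219 and 42.8 FPKM), which was lower with drought in both genotypes too, and how reads were divided between the loci was not tested.

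The remaining decreases fell on one genotype. Ca_21058 was the one member lower by 1 or more in DT only, with 3796 FPKM (control) and 1435 (drought) in DT, and 6761 and 5536 in DS, ratios of -1.40 and -0.29. Its value in DT(D) was the low one, and it had the lowest DT(D)/DS(D) ratio of all members, -1.95. Ca_04398, with 3456, 1917, 3986 and 3384 FPKM, was also lowest in DT(D) and had the third lowest of these ratios, -0.82. A further 12 members were lower by 1 or more in DS only, with ratios between -1.63 and -1.004 there and between -0.56 and 0.57 in DT. Of the loci with a mean FPKM of at least 1, 4.54% had this pattern. In ranks 101 to 1000, 20.2% of expressed loci were lower in DS(D/C) and 8.44% of loci were lower in both genotypes. Decreases in DS were therefore common in those ranks too. On columns of equal sum 3 members were lower in DS only, XLOC_028145, Ca_08536 and Ca_05806. As deposited, all 12 were highest in DS(C), and 4 of them were above 0 in DT(D/C). Ca_08236 was one of these, with 4176 and 6208 FPKM in DT without and with drought, and 7120 and 3037 in DS, ratios of 0.57 and -1.23, the latter being -0.76 with columns of equal sum. It had the highest DT(D)/DS(D) ratio of all members, 1.03, followed by Ca_14777 with 0.94 (2425, 3131, 2843 and 1628 FPKM) and Ca_28211 with 0.86 (2280, 4403, 2812 and 2418 FPKM). Ca_14777 was low in DS(D) and Ca_28211 was high in DT(D), so that similar ratios came from different columns.

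Increases by 1 or more were seen in DT alone, at 2 of the 100 loci, near the 3.39% of the loci with a mean FPKM of at least 1 that had this pattern. Ca_12726 had 4077 FPKM in control and 8818 in drought roots of DT, against 5409 and 6679 in those of DS, with ratios of 1.11 and 0.30. Ca_06579 had 975, 2172, 1334 and 1627 FPKM, with ratios of 1.16 and 0.29. In both loci the order was the same, DT(D) highest and DT(C) lowest, and both were also among the 3 largest ratios of DS(D/C). With columns of equal sum their DS(D/C) ratios were 0.77 and 0.75, and Ca_15742 was a further locus past 1 in DT. As deposited, Ca_15742 followed in DT(D/C) with 0.99 and was the locus of the top 10 with a higher level with drought in DS as well (0.17). The largest DS(D/C) ratio was that of Ca_05816, 0.48, with 2605 FPKM (control) and 3437 (drought) in DT, and 2765 and 3857 in DS. Its near neighbour in the locus order, Ca_05806, had 1595, 1413, 2684 and 867 FPKM and a ratio of -1.63 in DS(D/C), so that these 2 abundant loci moved apart with drought in DS.

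Opposite drought ratios of 0.5 or more in size, positive in DT and negative in DS, were found in 5 members, and 1.85% of the loci with a mean FPKM of at least 1 had them. Besides Ca_00723 and Ca_08236 these were Ca_08425 (3812, 6861, 6921 and 4497 FPKM), Ca_15501 (1133, 1947, 2202 and 1324 FPKM) and Ca_14616 (1208, 2078, 1952 and 1326 FPKM). In Ca_08425, Ca_15501 and Ca_14616 the values of DT(D) and DS(C) were the high pair and those of DT(C) and DS(D) the low pair. After rescaling to equal sums only Ca_08236 kept this pattern, and the DS(D/C) ratios of the others were -0.31 (Ca_00723), -0.16 (Ca_08425), -0.27 (Ca_15501) and -0.092 (Ca_14616). As deposited, none of the members had ratios of 0.5 or more in the reverse sense, where 2.52% of the loci with a mean FPKM of at least 1 did. None was higher by 0.5 or more in both genotypes either, against 4.93%, and with columns of equal sum 4 members were (Ca_15742, Ca_12726, Ca_11510 and Ca_06579).

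**Figure D3:**
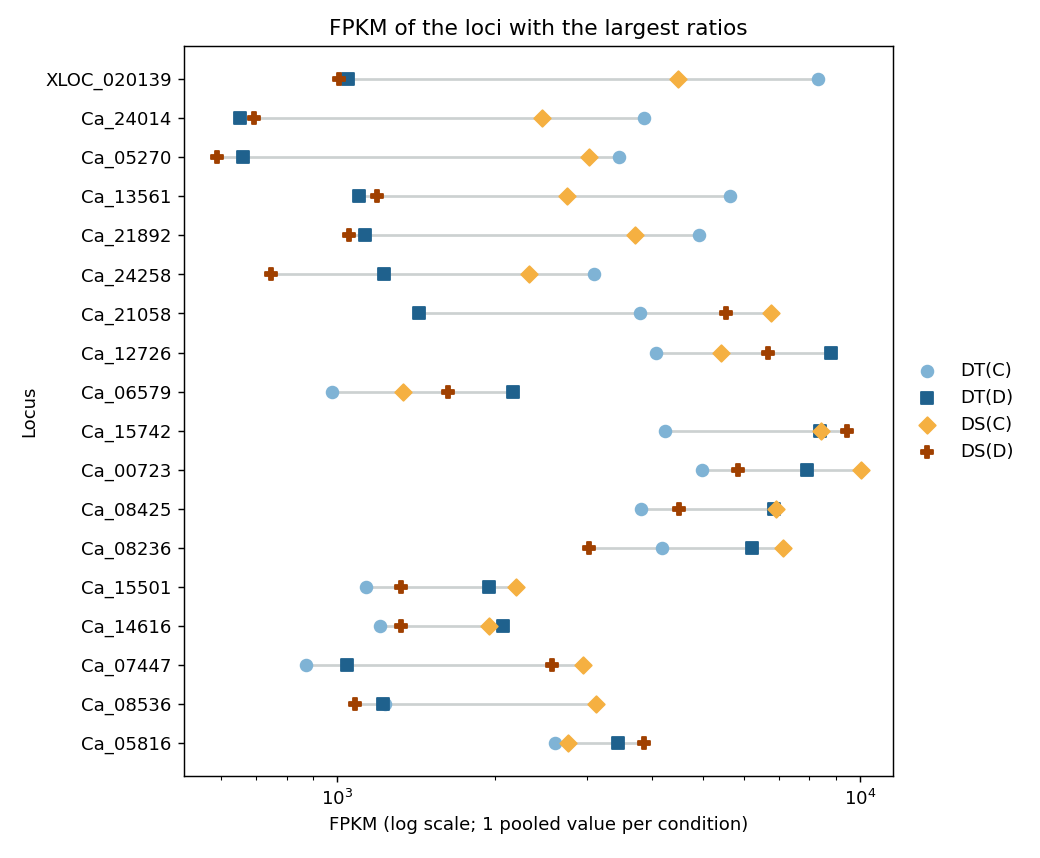
FPKM (x axis, log scale) of 18 loci with large ratios (y axis) in the 4 pooled columns, 1 symbol per condition, with a grey line from the lowest to the highest value. In the top 6 rows both drought symbols lie left of both control symbols, and in Ca_07447 the DT and DS symbols form separate pairs.

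Between the genotypes, most members were lower in DT than in DS in control roots, and most were higher in DT in drought roots. In DT(C)/DS(C), 10 members were above and 90 below 0, with a median of -0.53, quartiles of -0.72 and -0.33 and a range from -1.76 to 1.03. One member was higher and 6 were lower by 1 or more, against a background of 11.1% and 5.17% of 20231 expressed loci. In DT(D)/DS(D), 75 were above and 25 below 0, with a median of 0.21, quartiles of 0.00 and 0.46 and a range from -1.95 to 1.03. Here 1 member was higher and 2 were lower, against 6.73% and 5.09% of 20310 loci. The few genotype ratios past 1 were thus fewer than in the table at large on the higher side, and near it or below it on the lower side. Over all expressed loci the medians were 0.09 and 0.10. With columns of equal sum the splits were 23 above and 77 below 0 in DT(C)/DS(C) and 54 above and 46 below 0 in DT(D)/DS(D). DT(C)/DS(C) shares a column with both drought comparisons, and its ratios are not independent of theirs.

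Ca_07447 was the one member with a genotype ratio below -1 in control and in drought roots, with 869 and 1042 FPKM in DT without and with drought, and 2945 and 2579 in DS. Its ratios were -1.76 in DT(C)/DS(C) and -1.31 in DT(D)/DS(D), and both DS values lay above both DT values. XLOC_028145 (-1.39) and Ca_08536 (-1.34) followed in DT(C)/DS(C). For Ca_08536 the values were 1235 FPKM in control and 1223 in drought roots of DT, against 3123 and 1081 in those of DS. At both of these loci DS(C) stood above the other columns, and their DT(D)/DS(D) ratios were 0.20 and 0.18. The highest control ratios, 1.03 for Ca_13561, 0.89 for XLOC_020139 and 0.65 for Ca_24014, belonged to loci described above as low with drought in both genotypes.

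Across the 4 columns, the members were most often highest in DS(C) and lowest in DS(D) or DT(C). The highest value fell in DS(C) for 69 loci, in DT(D) for 20, in DT(C) for 7 and in DS(D) for 4. Over all loci with a mean FPKM of at least 1 the shares were 25.7%, 29.2%, 26.2% and 18.9%. The lowest value fell in DS(D) for 48 members, in DT(C) for 37, in DT(D) for 14 and in DS(C) for 1, where the shares over all these loci were 29.0%, 19.9%, 17.1% and 34.04%. After rescaling to the same sum DS(C) was still the column with the most highest values, now for 42 loci, with 30 in DT(D), 17 in DS(D) and 11 in DT(C). Few of the abundant loci were level across the columns. In 17 of the 100 the highest value was less than 1.5 times the lowest. This held for 35.5% of the loci with a mean FPKM of at least 1. It held for 18% of ranks 101 to 200 and 24.9% of ranks 101 to 1000, so it was not particular to the members. Of the 100, 75 stayed within 1 of 0 in all 4 log2 ratios, against 69.5% of the loci with a mean FPKM of at least 1.

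The 3 members with a name were glycolytic enzymes. Ca_00761, an enolase, which forms phosphoenolpyruvate, ranked 54 with 2122 FPKM (control) and 2214 (drought) in DT, and 2873 and 1733 in DS. Ca_27205, an aldolase, which splits fructose bisphosphate into triose phosphates, ranked 60 with 1927, 2177, 2876 and 1513 FPKM. Ca_11318, a glyceraldehyde phosphate dehydrogenase (GAPDHC2), which oxidises one of these triose phosphates, ranked 95 with 1498, 1435, 2012 and 1096 FPKM. All 3 were highest in DS(C) and lowest in DS(D), with DS(D/C) ratios of -0.73, -0.93 and -0.88, and in DT(D/C) they were at 0.06, 0.18 and -0.06. A triose phosphate isomerase, Ca_02616, missed the 100 at rank 102, and of the 44 glycolysis and gluconeogenesis genes that the study lists 7 were among the 1000 most abundant loci, with a median rank of 2476 over the list. With drought, 3 of the 44 were higher by 1 or more and 3 lower in DT, and in DS none was higher and 3 were lower, beside backgrounds of 5.03% and 8.88% in DT and 8.21% and 8.66% in DS. Between the genotypes, 3 were higher in control roots of DT and 1 was lower, and in drought roots 2 were higher and none lower, beside 11.1% and 5.17% in control and 6.73% and 5.09% in drought roots. None of these was one of the 3 abundant enzymes, whose ratios all stayed within 1 of 0. The study's lists for glutathione metabolism (27 genes) and phosphatidylinositol signaling (17), and the 22 genes it names in a QTL hotspot, had no member in the 100. These lists were drawn up by the study on the same samples. The hotspot holds further genes that were not looked up here. Members Ca_04398 and Ca_04455 have identifiers numbered between those of named hotspot genes, and whether they lie in it was not checked.

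The members' part in the column sums differed between the comparisons. The columns summed to 1378432 and 1352243 FPKM in DT without and with drought, and 1662837 and 1204308 in DS, and the members to 328707, 359447, 479296 and 329847. The column of DS(C) was thus the largest, both with and without the 100 loci. In DT(D/C) the members differed by 30740 FPKM, the other loci by -56929 and the column by -26189, so that members and column moved in opposite directions. In DS(D/C) the members' difference was -149449 FPKM and made up 32.6% of a column difference of -458529. In DT(C)/DS(C) their difference of -150589 was 52.9% of the -284405 between the columns. In DT(D)/DS(D) they gave 29600 of a difference of 147935 FPKM. Of the comparisons in which members and column had the same sign, the 100 loci carried the largest part in DT(C)/DS(C).

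Expressed as log2 ratios of sums, the members gave 0.13 with drought in DT, against -0.08 for all other loci, and -0.54 in DS, against -0.44. Between the genotypes they gave -0.54 in control roots, against -0.17, and 0.12 in drought roots, against 0.18. The members exceeded the other loci in size in each comparison except that of the drought roots. In that comparison the sign depended on the scale, since with columns of equal sum the members' ratio was -0.043. The gain in DT(D/C) was spread over 64 loci with 70465 FPKM in all, of which 3 loci (the one of Ca_21944 and Ca_21945, Ca_12726 and Ca_15742) gave 36.9%, and was offset by a difference of -39724 FPKM over the other 36. In DS(D/C) the loss was broader, -154697 FPKM over 91 loci, of which the 3 largest gave 18.2%. Without the 2 most abundant loci the ratio of sums with drought was 0.08 for DT and -0.60 for DS.

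**Figure D4:**
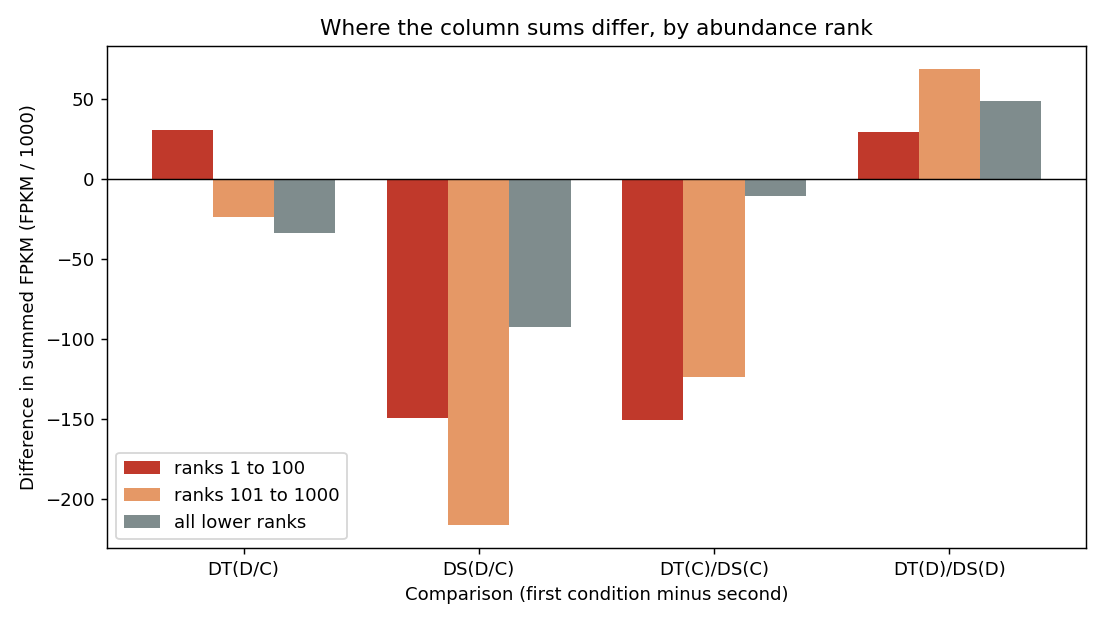
Difference in summed FPKM (y axis, FPKM divided by 1000) between the conditions of each comparison (x axis), split into the 100 loci, ranks 101 to 1000 and all lower ranks by mean FPKM. The 100 loci are positive and the others negative in DT(D/C), whereas in DS(D/C) ranks 101 to 1000 contribute more than the 100 loci.

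The lower values in DS(D) were not particular to the 100 loci. The median DS(D/C) ratio was -0.61 for ranks 1 to 100, -0.72 for ranks 101 to 200, -0.73 for ranks 201 to 500, -0.53 for ranks 501 to 1000 and -0.42 for ranks 1001 to 2000. It then went to -0.20 for ranks 2001 to 5000, -0.01 for ranks 5001 to 10000 and 0.20 for ranks 10001 to 20000. The negative ratio was thus shared by the upper bands and became smaller towards low abundance, where the sign changed. Ranks 101 to 1000 accounted for 47.2% of the DS(D/C) column difference. DT(C)/DS(C) showed the same gradient, from -0.53 in the 100 loci over -0.32 in ranks 501 to 1000 to 0.26 in ranks 10001 to 20000, and the column of DS(C) stands in both. In DT(D/C) the medians of all these bands lay close to 0. The split of DT(D)/DS(D) was shared by lower ranks too. Its median was 0.21 in the 100 loci and 0.26 in ranks 101 to 1000, where 24.7% of the loci lay below 0. Ratios of -1 or lower with drought in both genotypes, found in 6 of the 100, were found in 8.44% of ranks 101 to 1000, and the highest value fell in DS(C) for 67.4% of those ranks as against 69 of the 100.

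**Figure D5:**
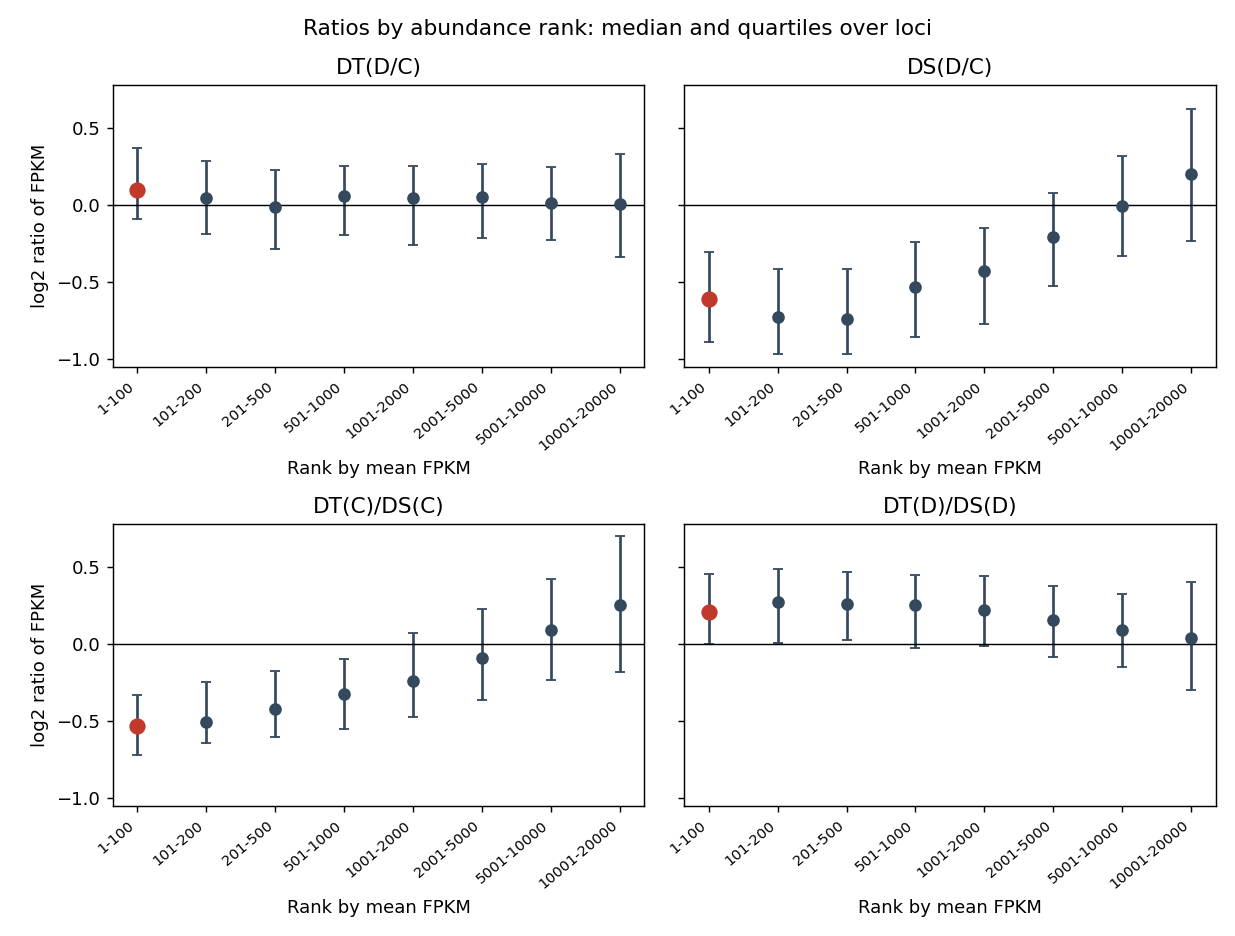
Median log2 ratio of FPKM (y axis, points) with the quartiles over loci (bars) by rank of mean FPKM (x axis) in the 4 comparisons, the 100 loci in red. The medians of DS(D/C) go from -0.61 in the 100 loci to 0.20 in ranks 10001 to 20000, those of DT(C)/DS(C) from -0.53 to 0.26, and those of DT(D/C) stay near 0.

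Loci with an unclear gene model took a moderate part of the sums. The 5 members without an identifier held between 1.70% (DT(D)) and 2.64% (DS(C)) of a column, and the 7 with several identifiers between 2.72% (DT(C)) and 4.38% (DT(D)). Of all loci, 1.78% had several identifiers, and for these the FPKM cannot be assigned to one gene. In 7 members an identifier recurred at another locus, which was far less abundant in 6 of them, with at most 9.53% of the member's mean. The exception was Ca_15072, with 2372, 2144, 3096 and 1841 FPKM at rank 52 and 1425, 1556, 1533 and 927 FPKM at its other locus of rank 118. Both loci were lowest in DS(D). Members that stand next to each other in the locus order also differed in their ratios: with drought Ca_15740 had 0.28 in DT and -0.30 in DS, and Ca_15741 had 0.91 and -0.03.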

How the data were processed

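Root RNA of 8 libraries, 2 per group, was sequenced as 49-nt single-end reads. Per the study's methods and the submitters' processing notes, the authors mapped filtered reads to the kabuli chickpea genome with TopHat2 (v2.1.1), assembled transcripts guided by the annotation with Cufflinks (v2.2.1), merged the assemblies and ran Cuffdiff (v2.2.1). The deposited FPKM values are the authors' value per locus and condition, pooled over 2 libraries, without read counts per locus or values per library, so no interval or test was made. The study's read totals per library were not used here.

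Loci were ranked by the mean of the 4 FPKM columns and the first 100 taken (Python 3.11.15, numpy 2.4.6, pandas 2.3.3, matplotlib 3.10.9). Log2 ratios were taken without a pseudocount, backgrounds over loci with an FPKM of at least 1 in either condition, and a ratio of at least 1 or at most -1 was counted. The arithmetic was checked on a copy of the values with known ratios put in and no noise, which says nothing about the results themselves. Named loci were the 10 with the highest means, the 3 largest and 3 smallest ratios of each comparison, the 3 largest FPKM gains and losses with drought in each genotype, those next to the limit and those the study names. Ca_24258, Ca_08425, Ca_15501, Ca_14616, Ca_05806, Ca_15072, Ca_15740 and Ca_15741 were added after their values were seen. Members and lists were chosen with earlier results of these data known. Transcript lengths, genome positions and sequences were not used here, and 1 gene of the study's lists is not reported. Alternatives varied the ranking, the number of loci, the identifiers, the pseudocount, the limit and the scaling of the columns.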

Additional observations from a re-analysis of the deposited data

Results flagged for a closer look

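As deposited, the 100 loci moved in opposite directions with drought in the 2 genotypes. The log2 ratio of their summed FPKM was 0.13 in DT and -0.54 in DS, and their median log2 ratio was 0.10 in DT and -0.61 in DS. With columns of equal sum the ratio of sums was 0.16 in DT and -0.074 in DS, and the median was 0.13 and -0.14. The size of the DS values thus depended on the scaling. Relative to the median of all expressed loci, the members' DS(D/C) median lay lower by 0.60 on both scales. With 1 pooled value per condition the difference between the genotypes was not tested. Single loci with opposite ratios of 0.5 or more in size were Ca_00723 (0.66 in DT and -0.78 in DS), Ca_08425 (0.85 and -0.62), Ca_08236 (0.57 and -1.23), Ca_15501 (0.78 and -0.73) and Ca_14616 (0.78 and -0.56), and these differences were not tested either. With columns of equal sum the ratios of DS were -0.31, -0.16, -0.76, -0.27 and -0.092, and those of DT were 0.69, 0.88, 0.60, 0.81 and 0.81, so that Ca_08236 alone kept 0.5 or more in size in both. As deposited, the ratio of the other loci's sums was -0.08 in DT and -0.44 in DS. Which scaling of the columns applies was not tested.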

How the results depend on the processing

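With 1 pooled FPKM per condition, leaving out a replicate was not run, and depth limits cannot be given. No paired analysis was possible because the columns carry no replicate numbers. Ranking by the median of the 4 values (96 loci shared with the 100) or after rescaling the columns (98 shared), a pseudocount of 1 and the choice of loci in the sum changed no share by 1 percentage point, no ratio by 0.1 and no count by more than 1.5 times. Ranking on the highest value (87 shared) gave 4 higher with drought in DT and 2 in DS, and between the genotypes 2 higher and 10 lower in control roots and 5 higher in drought roots. Ranking on the 2 columns outside a comparison gave 1 higher with drought in DT, and between the genotypes 0 higher in control and 3 in drought roots, with medians of 0.08 (DT) and -0.62 (DS) with drought and of -0.51 (control) and 0.17 (drought) between genotypes. The cause of these changes was not tested.

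Fewer or more loci change shares and counts by construction. The shares, in the order of control and drought roots of DT and then of DS, were 17.6%, 20.1%, 21.9% and 21.2% with 50 loci, and 31.8%, 34.8%, 37.8% and 35.1% with 200. Ranking loci with 1 identifier gave 20.4%, 21.5%, 24.2% and 22.8%, and leaving out Ca_05165 gave 22.0%, 24.8%, 26.6% and 24.3%, so DS(D) then lay below DT(D). With drought, 50 loci gave 1 higher and 4 lower in DT and 11 lower in DS, and 200 loci gave 6 and 12 in DT and 2 and 42 in DS. In DT(C)/DS(C), 200 loci gave 2 higher and 14 lower. In DT(D)/DS(D), 200 loci gave 7 higher, and 50 gave 1 lower and a median of 0.10. A log2 limit of 2 left 0 higher with drought in DT, 2 lower in DS, and 0 in either direction between the genotypes.

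With columns of equal sum the DS(D/C) median was -0.14, the ratio of the members' sums -0.074 and the lower count 8. DT(C)/DS(C) had a median of -0.26, a ratio of sums of -0.27 and counts of 2 higher and 3 lower. DT(D)/DS(D) had a median of 0.040, 0 higher, and a ratio of sums that reversed to -0.043. Columns of equal sum over the other loci, an alternative chosen after seeing the data, gave 5 higher in DT(D/C). It gave a median of -0.17, a ratio of sums of -0.10 and 8 lower in DS(D/C), a median of -0.36, a ratio of sums of -0.37 and 2 higher in DT(C)/DS(C), and a median of 0.025, 0 higher and a reversed ratio of sums of -0.059 in DT(D)/DS(D). Centring on the median over expressed loci left 0 higher in either genotype comparison. The shifts on rescaling follow from the sums used, and those on centring from the medians over expressed loci. No named locus with a ratio past 1 in size changed sign with columns of equal sum, centred ratios or a pseudocount of 1.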
